A study of Homo sapiens with 9 samples.

Results

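Histone genes of the Jurkat transcriptome were taken from the deposited table by symbol: names that begin with HIST, a cluster number and H, and older names of the H1F0, H2AFX and H3F3B kind. The rule gave 90 of the 26228 genes of the table. Apart from 4 pseudogenes, they were sorted by symbol. The 70 whose names begin with HIST are called replication-dependent here, and the 16 with older names are called variant (replication-independent). Regulation of single genes was not tested, and H2AFX counts as a variant though its transcript carries the histone stem-loop described below. Of these, 50 reached at least 1 FPKM (a fragment level corrected for the length of the transcript and the size of the library) in at least 3 of 9 libraries and were tested: 41 replication-dependent genes, 8 variant genes and 1 pseudogene. A further 22 were listed at 0 in all 9 libraries, and 18 had low values in some libraries.

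Jurkat cells are a long-established line from a human T-cell leukaemia. The samples were 3 libraries of the CRISPR/Cas9-edited line EZH2-KO1 (KO1), 3 of the edited line EZH2-KO2 (KO2) and 3 of the line labelled EZH2-WT (WT), described as biological triplicates. All were exponentially growing cultures in RPMI medium with serum and antibiotics, with no drug named, and all libraries came from a kit that selects poly(A) mRNA. EZH2 is the enzyme of the Polycomb complex that methylates histone H3 at lysine 27, and the study concerns replication stress and inhibition of the checkpoint kinase CHK1 in EZH2-deficient leukaemia. With 1 line for each edit, p-values here reflect variation among cultures and cannot speak for further edited lines; the sources used here do not say whether a line is 1 clone.

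Replication-dependent histone genes supply the bulk of histones when DNA is copied. They have no introns, sit in clusters and are switched on in S phase through NPAT at their promoters; their mRNA normally ends just after a short stem-loop, bound by the stem-loop binding protein SLBP, in place of a poly(A) tail. Variant histones such as H2A.Z, macroH2A and H3.3 come from single genes that are mostly spliced and polyadenylated, and they are deposited throughout the cell cycle by their own chaperones. Some replication-dependent genes can also give longer, polyadenylated transcripts, for instance in cells that leave the cycle.

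The stem-loop was read from GENCODE 29 transcripts (GRCh38) as 16 letters on the transcript strand: GGC, any base, CTTTT, any base, AG, any base and GCC. It was found in a transcript of 33 of the 90 histone genes (36.7%), against 40 of the 57133 genes in that annotation (0.07%). The 33 were 31 replication-dependent genes, the variant gene H2AFX and the pseudogene HIST2H2BC. The windows shown, with the stem-loop in capitals, belong to the 4 replication-dependent genes with the highest level, to 4 further genes called lower in KO1, and to H2AFX. All are on the transcript strand, 5′ to 3′.
HIST1H2BD: ccaaaGGCTCTTTTAAGAGCCacgcatgtt
HIST2H2BF: ccaaaGGCTCTTTTCAGAGCCacttcagta
HIST1H4E: tcaaaGGCCCTTTTCAGGGCCgcccacagt
HIST1H2BF: ccaaaGGCTCTTTTAAGAGCCacccacttt
HIST1H2BN: ccaaaGGCTCTTTTCAGAGCCactcagtct
HIST1H2BH: ccaaaGGCTCTTTTCAGAGCCacttaatga
HIST3H2A: ataaaGGCTCTTTTCAGAGCCacctactat
HIST4H4: caaaaGGCCCTTTTCAGGGCCcccaaactg
H2AFX: acaaaGGCCCTTTTAAGGGCCaccaccgcc
Every H4 gene among the matches had a stem that opens GGCCC, and every matching H2B and H3 gene one that opens GGCTC. H2AFX, whose protein marks DNA breaks once phosphorylated, carried the GGCCC form, in a transcript that ran on for 1044 bases. Of the 31 replication-dependent matches, 22 had a transcript that ran on for at least 100 bases past the stem-loop and 9 had one that ended nearer to it. The mean level over 9 libraries had a median of 1.22 FPKM in the 22 genes with a longer transcript and 0.377 FPKM in the 9 genes whose transcript ended nearer. The ranges overlapped, at 0 to 10.6 FPKM and 0 to 17.9 FPKM. The latter group holds the most abundant gene, HIST1H2BD, whose longest transcript (789 bases) has no match. It also holds HIST2H2AA3 and HIST2H2AA4, near-identical copies listed at 0. The group with a longer transcript likewise holds copies listed at 0, namely HIST2H3A, HIST2H3C, HIST2H4A and HIST2H4B. In the 39 replication-dependent genes with no match the mean level had a median of 1.10 FPKM. In 28 of these the longest transcript was 420 bases or shorter, so most such gene models end with the coding region and hold no stem-loop to find. Levels between genes here are per length of gene models not given in the sources used here, so a model that leaves out a longer 3′ end changes the level.

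**Figure D1:**
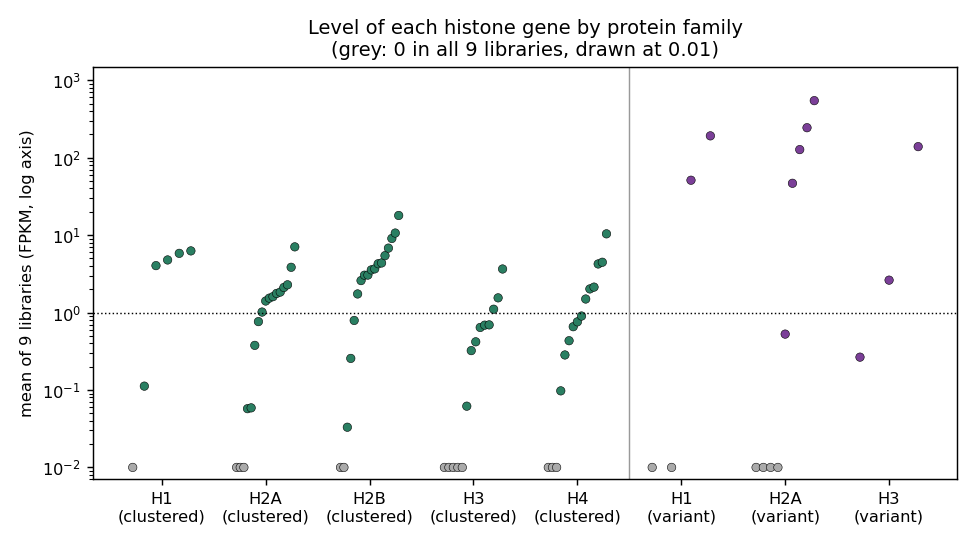
Mean FPKM over 9 libraries of each histone gene, on a log axis, by protein family, with replication-dependent ("clustered") genes on the left and variant genes on the right. Each point is a gene, grey points are genes listed at 0 in all 9 libraries, the dotted line is 1 FPKM, and the pseudogenes are left out. The highest replication-dependent gene, HIST1H2BD, lies at 17.9 FPKM, below 7 of the variant genes.

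Variant genes made up most of the histone signal in these poly(A) libraries. H2AFZ had a mean of 545 FPKM over the 9 libraries, H2AFY 244, H1FX 191, H3F3B 139, H2AFV 127, H1F0 51.1 and H2AFX 46.7. Among replication-dependent genes the highest were HIST1H2BD at 17.9 FPKM, HIST2H2BF at 10.6, HIST1H4E at 10.4 and HIST1H2BF at 9.05, and the median of all 70 was 1.06. By family, 14 of 18 H2B genes, 10 of 17 H2A genes, 9 of 15 H4 genes, 4 of 6 H1 genes and 4 of 14 H3 genes were tested. Of the 41 tested replication-dependent genes, 22 were at 1 FPKM or more in every library. The genes listed at 0 throughout include the near-identical copies HIST2H2AA3 and HIST2H2AA4, HIST2H3A and HIST2H3C, HIST2H4A and HIST2H4B, and H2AFB1 to H2AFB3. An exact 0 can be a failed estimate where reads match more than 1 copy, so these are not shown to be silent.

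The EZH2 transcript was present in every library, at 108, 107 and 103 FPKM in KO1, 87.9, 89.9 and 90.7 FPKM in KO2 and 74.4, 77.6 and 79.5 FPKM in WT. It was higher under the KO1 label (log2 fold change 0.45 ± 0.04 (SE), limma adjusted p = 1.64e-06) and under the KO2 label (0.21 ± 0.04, adjusted p = 0.000541), and a value over the whole transcript cannot check an edit. The libraries summed to between 417737 and 439704 FPKM, and their depth in reads is unknown. All 10 T-cell markers were tested, with summed levels of 1326 to 1465 FPKM in KO1, 1532 to 1570.0 in KO2 and 1535 to 1638 in WT. Single markers moved within these sums: CD2 averaged 90.6 ± 3.59 FPKM in KO1, 4.38 ± 0.789 in KO2 and 35.8 ± 0.774 in WT, and CD28 averaged 7.73 ± 0.351, 13.5 ± 0.481 and 35.4 ± 0.483 FPKM in KO1, KO2 and WT (SD, n = 3 each). By the limma test 3 of the 10 markers were higher and 7 lower under the KO1 label, against 3 higher and 5 lower under the KO2 label. Of B-cell markers 1 of 4 was tested (CD79A; list sum 48.6 to 58.2 FPKM in KO1, 19.2 to 22.2 in KO2 and 24.5 to 29.03 in WT), of fibroblast markers 1 of 3 (COL1A1; list sum 1.28 to 1.77, 1.20 to 1.56 and 0.449 to 0.510 FPKM in KO1, KO2 and WT), and of 4 myeloid and 3 erythroid markers none. The part of these markers in the histone results was not tested. In bulk RNA, fewer cells in S phase and less histone RNA per cell cannot be told apart.

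**Figure D2:**
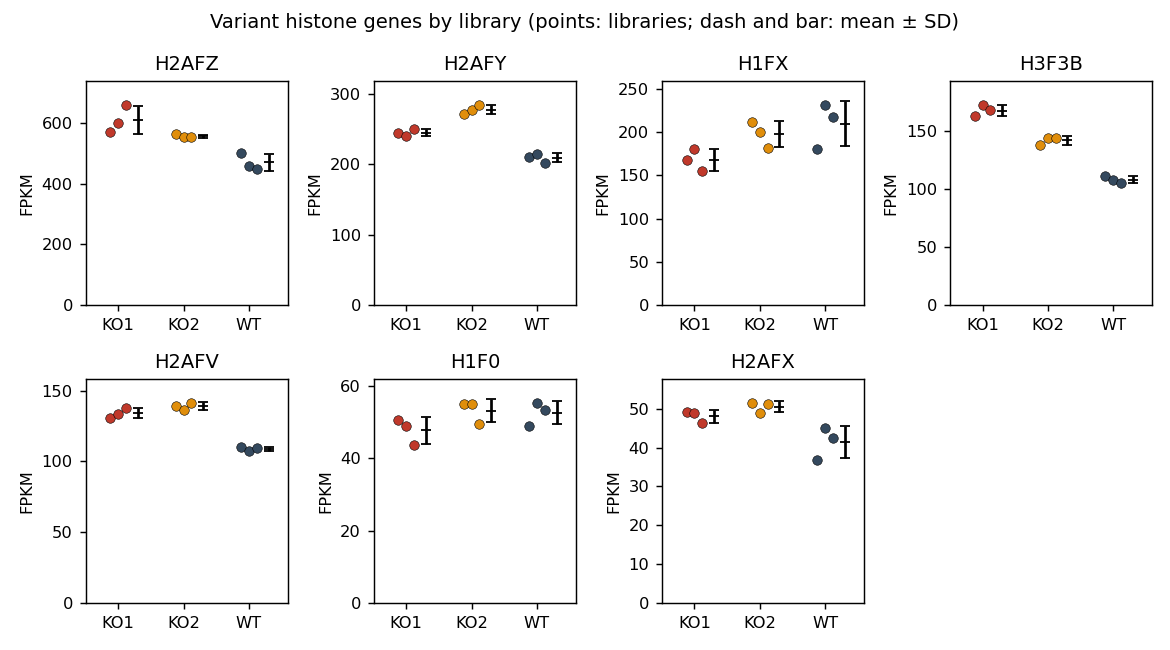
FPKM of 7 variant histone genes in each library (axes start at 0; points are libraries, with the mean ± SD of 3 to their right). For H2AFZ, H2AFY, H3F3B, H2AFV and H2AFX all 6 edited libraries lie above all 3 WT libraries, while for H1F0 the groups overlap.

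The variant genes H2AFZ, H2AFV, H2AFY, H2AFX and H3F3B were higher in both edited lines, and the linker histone gene H1FX was lower in KO1. Of the 8 variant genes tested, 5 rose and 1 fell in KO1, with a median log2 fold change of 0.26, and 5 rose and 0 fell in KO2, with a median of 0.32. The 8 include H3F3A, which entered the test through edited libraries alone and was not called. Over all 11737 tested genes, 67.5% were called in KO1 (35.6% higher, 31.9% lower; median 0.02) and 64.7% in KO2 (38.1% higher, 26.6% lower; median 0.06). These shares of the whole table are large, and the comparisons of KO1 and KO2 share the WT libraries. Fold changes here and elsewhere are of log2(FPKM + 1) ± SE, a scale that understates changes of weakly expressed genes. The rises also passed after quantile normalization and after median centring of the libraries.

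H2AFZ and H2AFV encode the closely related H2A.Z proteins, which sit beside transcription start sites. H2AFZ had 572, 598 and 659 FPKM in KO1, 562, 555 and 552 FPKM in KO2 and 502, 458 and 449.7 FPKM in WT. Every edited library was above every WT library, and KO1 replicate 3 was the highest. On the log2 scale the change was 0.37 ± 0.06 in KO1 (limma adjusted p = 0.000142) and 0.24 ± 0.06 in KO2 (adjusted p = 0.0028). H2AFV had 131, 134 and 138 FPKM in KO1, 139, 136 and 141 FPKM in KO2 and 109.9, 107 and 109 FPKM in WT. The groups of edited and WT libraries did not overlap. Its log2 fold change was 0.30 ± 0.03 in KO1 (adjusted p = 1.86e-05) and 0.35 ± 0.03 in KO2 (adjusted p = 6.9e-06).

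H2AFY encodes macroH2A, a large H2A found on the inactive X chromosome and other silent chromatin. It had 244, 241 and 250.4 FPKM in KO1, 271, 277 and 284 FPKM in KO2 and 211, 215 and 202 FPKM in WT. KO2 was above KO1 and KO1 above WT, with no overlap. Its log2 fold change was 0.23 ± 0.04 in KO1 (adjusted p = 0.000204) and 0.41 ± 0.04 in KO2 (adjusted p = 3.22e-06). H2AFX, the gene of the DNA damage marker H2A.X, had 49.1, 48.9 and 46.2 FPKM in KO1, 51.5, 48.9 and 51.3 FPKM in KO2 and 36.8, 44.98 and 42.6 FPKM in WT. All edited libraries were above all WT libraries, and WT replicate 1 was the lowest. Its log2 fold change was 0.21 ± 0.07 in KO1 (adjusted p = 0.0144) and 0.28 ± 0.07 in KO2 (adjusted p = 0.00306). The H2AFX call in KO1 was lost with all rows tested (adjusted p = 0.0689).

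H3F3B is 1 of a pair of genes for H3.3, the H3 that chaperones such as HIRA place throughout the cell cycle. Its levels were 162, 172 and 167 FPKM in KO1, 137, 144 and 144 FPKM in KO2 and 111, 107 and 105 FPKM in WT. The 3 groups did not overlap, with KO1 the highest. H3F3B rose by 0.63 ± 0.04 on the log2 scale in KO1 (adjusted p = 1.35e-07) and by 0.39 ± 0.04 in KO2 (adjusted p = 6.49e-06). The other gene of the pair, H3F3A, had 3.78, 0.001696 and 7.597 FPKM in KO1, 8.002, 0.00159 and 4.19 FPKM in KO2 and 0.00148, 0.00167 and 0.00168 FPKM in WT. Its values were thus close to 0 in all WT libraries and in replicate 2 of each edited line. The pseudogene H3F3AP4 had 6.61, 11.2 and 4.78 FPKM in KO1, 3.06, 11.7 and 8.296 FPKM in KO2 and 14.6, 8.94 and 12.9 FPKM in WT, and H3F3A and H3F3AP4 together summed to 10.4 to 12.4 FPKM in KO1, 11.1 to 12.5 in KO2 and 8.94 to 14.6 in WT. The sums of the groups overlapped, near-identical sequences can share reads, and neither gene's value is certain. H3F3A did not pass in KO1 (1.79 ± 0.83, adjusted p = 0.0774) or KO2 (1.85 ± 0.83, adjusted p = 0.0716). It passed in KO1 without KO1 replicate 2 or KO2 replicate 2 (adjusted p = 0.00948 to 0.0297) or with only those groups in the fit (0.0385). H3F3A passed in KO2 without KO1 replicate 2 or KO2 replicate 2 (adjusted p = 0.0074 to 0.0308) or with only those groups in the fit (0.0368). H3F3A reached the 1 FPKM minimum in 2 KO1, 2 KO2 and 0 WT libraries. It thus entered the test through edited libraries alone, and its passes add no support and are read with that limit.

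The variant linker histones bind the DNA between nucleosomes. H1FX had 168, 179.9 and 154 FPKM in KO1, 211, 200.1 and 181 FPKM in KO2 and 181, 231 and 217 FPKM in WT. KO1 was below WT with no overlap, by a margin of less than 1 FPKM between KO1 replicate 2 and WT replicate 1, and KO2 overlapped WT. The limma log2 fold change was -0.32 ± 0.09 in KO1 (adjusted p = 0.00949) and -0.08 ± 0.09 in KO2 (adjusted p = 0.448). The H1FX call in KO1 was lost with all rows tested (0.0723) or without both KO1 replicate 3 and WT replicate 3 (0.0924). H1F0, a linker histone known to accumulate in cells that stop dividing, had 50.6, 48.96 and 43.6 FPKM in KO1, 55.00, 54.97 and 49.4 FPKM in KO2 and 49.03, 55.3 and 53.3 FPKM in WT. Its groups overlapped, and it passed in neither KO1 (-0.14 ± 0.07, adjusted p = 0.0923) nor KO2 (0.01 ± 0.07, adjusted p = 0.86); it passed in KO1 without WT replicate 1 (adjusted p = 0.0349). The untested variant genes with values above 0 were H2AFY2, with a mean of 0.527 FPKM and H3F3C, with 0.265, and the other 6 (H1FNT, H1FOO, H2AFB1, H2AFB2, H2AFB3 and H2AFJ) were listed at 0 throughout. CENPA, the centromeric H3 variant outside the naming rule, averaged 23.1 ± 3.31 FPKM in KO1, 25.9 ± 1.52 in KO2 and 31.8 ± 1.09 in WT (SD, n = 3 each). It was lower in KO1 (-0.45 ± 0.09, adjusted p = 0.000764) and in KO2 (-0.29 ± 0.09, adjusted p = 0.0121), and this KO2 call was lost without KO2 replicate 2 (adjusted p = 0.0506) or with all rows tested (0.0742).

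**Figure D3:**
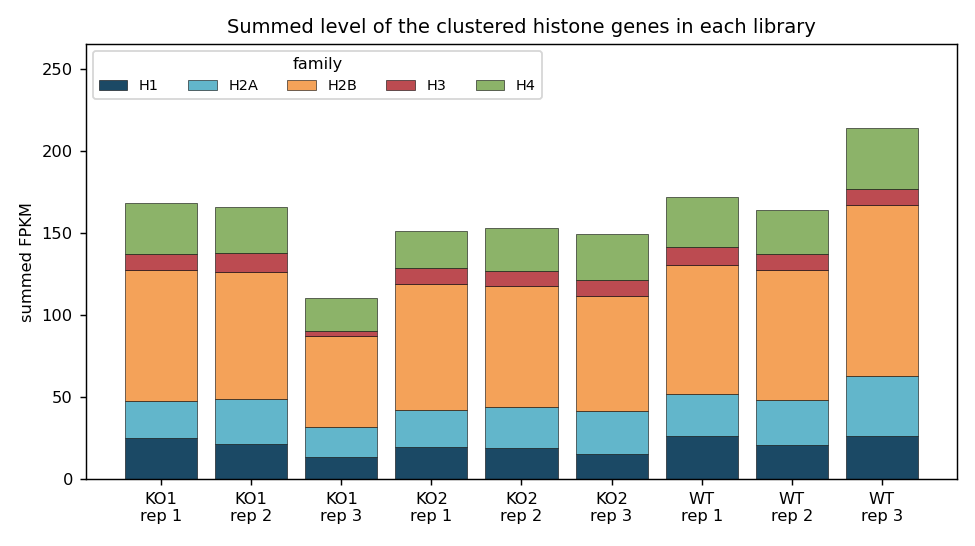
Summed FPKM of the 70 replication-dependent ("clustered") histone genes in each of the 9 libraries, stacked by protein family, from 0. KO1 replicate 3 is the lowest at 111 FPKM and WT replicate 3 the highest at 214, and H2B genes give the largest part in every library.

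The replication-dependent genes summed to 168, 166 and 111 FPKM in KO1, 151, 153 and 149 in KO2 and 172, 164 and 214 in WT. The mean was 148 ± 32.6 FPKM in KO1, 151 ± 1.92 in KO2 and 183 ± 26.8 in WT (SD, n = 3 each). KO1 replicate 3 and WT replicate 3 stood apart from the other libraries of their groups: without them, KO1 averaged 167 FPKM and WT 168. All 3 KO2 libraries lay below all 3 WT libraries, while KO1 overlapped WT. H2B genes summed to 70.8 ± 13.5 FPKM in KO1, 73.5 ± 2.95 in KO2 and 87.2 ± 14.4 in WT, and H4 genes to 26.4 ± 5.70, 25.6 ± 2.86 and 31.6 ± 5.33 in KO1, KO2 and WT. H3 genes summed to 2.97 FPKM in KO1 replicate 3, against 8.91 to 11.4 in the other 8 libraries. In every library the variant genes summed higher: 1423 ± 43.2 FPKM in KO1, 1420.1 ± 14.6 in KO2 and 1200.1 ± 19.8 in WT.

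Single replication-dependent genes were mostly unresolved, and those that passed were mostly lower in the edited lines. In KO1, 11 of the 41 tested genes passed, all 11 lower, with a median log2 fold change over the 41 of -0.20. In KO2, 7 passed, 1 higher and 6 lower, with a median of -0.12. Over all tested genes, 35.6% were higher and 31.9% lower in KO1, and 38.1% and 26.6% in KO2. The shares of the 41 genes called higher or lower lay below these in both lines. HIST1H1C, HIST1H2AM, HIST1H2BH and HIST4H4 were lower in both lines. Of these, HIST4H4 passed the low-value filter through WT libraries alone, and HIST1H2BH through 3 WT libraries and 1 KO2 library. Both comparisons use the same WT libraries, and the share of all tested genes lower in both lines was not counted. Over all histone genes together, 17 of 50 were called in KO1 (5 higher, 12 lower) and 12 of 50 in KO2 (6 higher, 6 lower), against 67.5% and 64.7% of all tested genes. After quantile normalization the KO2 split was 5 higher and 12 lower, and after median centring it was 5 and 9. Over all tested genes the KO2 split also moved, from 38.1% higher and 26.6% lower to 32.4% and 31.3% after quantile normalization and 33.9% and 30.2% after median centring. The median standard error was 0.23 for the 41 replication-dependent genes and 0.06 for the 8 variant genes, on the log2 scale.

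The balance of replication-dependent calls turned on the libraries that stood apart. Without KO1 replicate 3, 12 passed in KO1, 3 higher and 9 lower. Without WT replicate 3, 10 passed in KO1, 2 higher and 8 lower, and 5 passed in KO2, 3 higher and 2 lower. Without both, 12 passed in KO1, 5 higher and 7 lower, with a median of 0.09. In KO2, 10 passed without both, 4 higher and 6 lower, with a median of -0.15. Over all tested genes, 65% were called in KO1 without KO1 replicate 3. Without WT replicate 3, 63.6% were called in KO1 and 60.8% in KO2. Without both, the shares of all tested genes were 61.8% in KO1 (32.7% higher, 29.1% lower) and 62.1% in KO2 (36.9% higher, 25.2% lower). The 5 rises of variant genes were also 5 without both libraries, in KO1 and in KO2. A group that lies low in 1 or 2 libraries can also miss the 1 FPKM minimum there: HIST4H4 reached it in WT libraries alone, HIST1H2BH in 3 WT libraries and 1 KO2 library, and HIST1H4D in 2 KO1 libraries and 1 WT library. A gene with 0 libraries of a group at the minimum was kept through its other groups. That group was KO1 and KO2 for HIST4H4, KO1 for HIST1H2BH and KO2 for HIST1H4D. The filter did not fix the direction against WT of HIST1H2BH in KO2 or HIST1H4D in KO1. The calls of these 3 genes are read with that limit. H3F3A and HIST1H3D reached the minimum in 0 WT libraries and HIST1H4I in 0 KO1 libraries, and they were not called in the main fit.

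**Figure D4:**
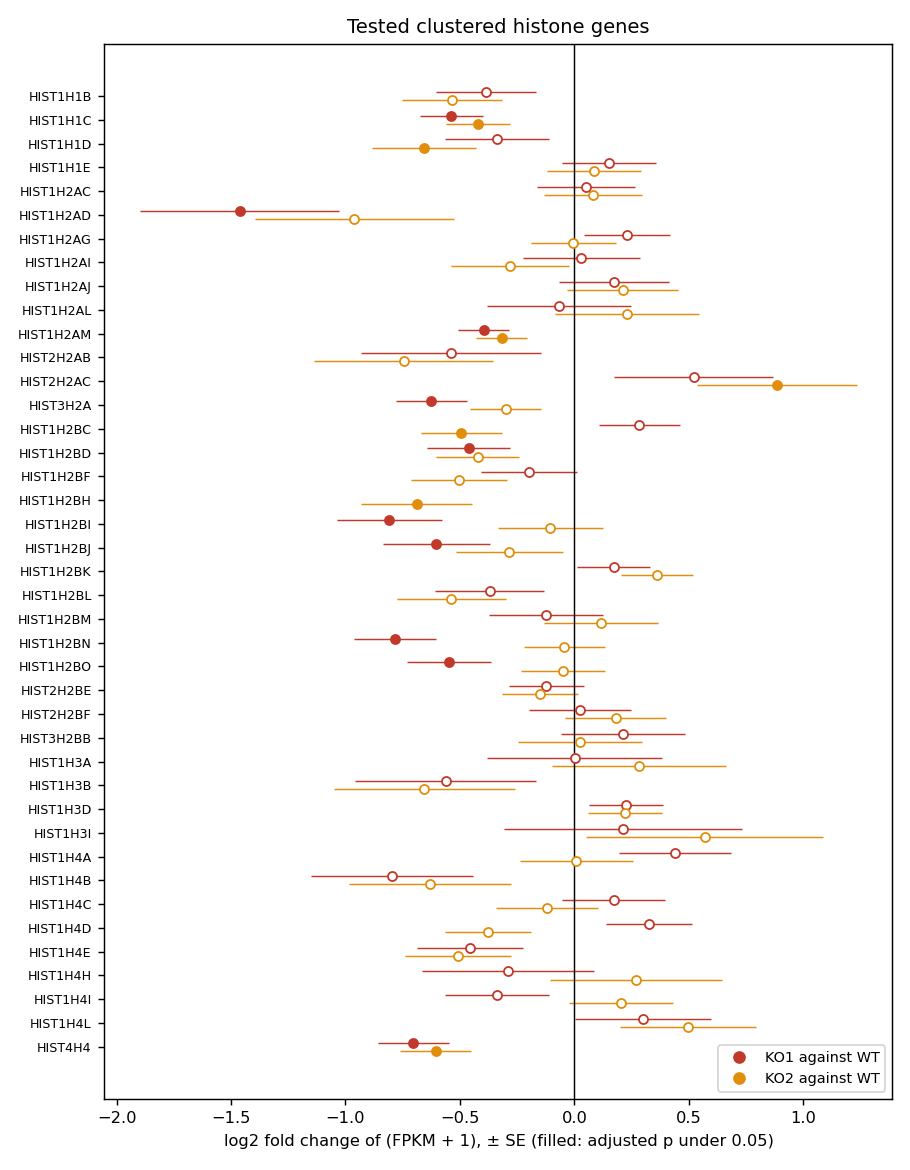
Log2 fold change ± SE of (FPKM + 1) against WT for each tested replication-dependent ("clustered") histone gene, by family from H1 to H4, in KO1 (upper, red) and KO2 (lower, orange). Filled points passed the limma test at adjusted p under 0.05; HIST1H2BH has no KO1 point because it is listed at 0 in all 3 KO1 libraries. Filled points lie left of 0 except for HIST2H2AC in KO2.

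Linker histone genes of the H1 family fold the nucleosome chain. HIST1H1C had 5.93, 5.35 and 4.18 FPKM in KO1, 5.71, 6.14 and 5.07 FPKM in KO2 and 9.69, 7.78 and 6.44 FPKM in WT. Every edited library was below every WT library. In log2 terms the change was -0.54 ± 0.14 in KO1 (adjusted p = 0.00552) and -0.42 ± 0.14 in KO2 (adjusted p = 0.0209). The HIST1H1C call in KO2 was lost without KO2 replicate 3 or WT replicate 1 (adjusted p = 0.0756 to 0.0757) or with all rows tested (0.116). HIST1H1D had 6.85, 4.31 and 3.06 FPKM in KO1, 3.62, 4.05 and 2.76 FPKM in KO2 and 5.84, 4.67 and 7.83 FPKM in WT. KO2 lay below WT, while KO1 overlapped it. Its log2 fold change was -0.66 ± 0.23 in KO2 (adjusted p = 0.0264), a call lost without KO2 replicate 1 or 3 or WT replicate 3 (adjusted p = 0.0502 to 0.103) or with all rows tested (0.153). In KO1 it was -0.34 ± 0.23 (adjusted p = 0.209), and it passed without KO1 replicate 1 (adjusted p = 0.0229). HIST1H1E had 7.73, 7.08 and 3.94 FPKM in KO1, 6.73, 5.12 and 5.45 FPKM in KO2 and 5.76, 4.08 and 6.42 FPKM in WT. Its groups overlapped and it passed in neither line (KO1 0.15, adjusted p = 0.537, and KO2 0.09, adjusted p = 0.732). In KO1 it passed as higher without KO1 replicate 3 (adjusted p = 0.041) or without both KO1 replicate 3 and WT replicate 3 (0.0152). HIST1H1B, the fourth tested H1 gene, had log2 fold changes of -0.38 in KO1 and -0.53 in KO2 that did not pass.

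H2A and H2B form a dimer in the nucleosome, and many of their genes lie in divergent pairs. Among H2A genes, HIST1H2AM had 5.26, 6.65 and 6.598 FPKM in KO1, 6.11, 5.73 and 7.94 FPKM in KO2 and 8.05, 8.38 and 8.76 FPKM in WT. All edited libraries were below the WT libraries. The log2 fold change was -0.40 ± 0.11 in KO1 (adjusted p = 0.009) and -0.32 ± 0.11 in KO2 (adjusted p = 0.0278). The HIST1H2AM call in KO1 was lost with all rows tested (adjusted p = 0.0555), and that in KO2 without KO2 replicate 1 or 2 or WT replicate 2 or 3 (adjusted p = 0.06 to 0.11), with all rows tested (0.124) or without both KO1 replicate 3 and WT replicate 3 (0.0821). HIST3H2A had 1.34, 0.479 and 1.28 FPKM in KO1, 1.55, 1.39 and 1.54 FPKM in KO2 and 2.297, 1.98 and 1.95 FPKM in WT. It was below WT in all edited libraries and lowest in KO1 replicate 2. It fell in KO1 (-0.63 ± 0.15, adjusted p = 0.00435) and did not pass in KO2 (-0.30 ± 0.15, adjusted p = 0.113), where it passed without KO1 replicate 2 (adjusted p = 0.0104) or with only those groups in the fit (0.0123).

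HIST1H2AD had 0.336, 3.97 and 1.72 FPKM in KO1, 2.52, 1.97 and 3.88 FPKM in KO2 and 6.13, 3.66 and 10.4 FPKM in WT. The libraries of each group differed widely, and KO1 overlapped WT. On the log2 scale the change was -1.46 ± 0.44 in KO1 (adjusted p = 0.012) and -0.96 ± 0.44 in KO2 (adjusted p = 0.0743). The HIST1H2AD call in KO1 was lost without WT replicate 3 (adjusted p = 0.0508), with all rows tested (0.0957) or without both KO1 replicate 3 and WT replicate 3 (0.0788). In KO2 it passed without KO1 replicate 1 or 2 or WT replicate 2 (adjusted p = 0.0274 to 0.0347) or with only those groups in the fit (0.0215). HIST2H2AC was the replication-dependent gene called higher, in KO2. It had 3.23, 1.74 and 1.27 FPKM in KO1, 1.89, 5.07 and 2.199 FPKM in KO2 and 0.285, 1.504 and 1.77 FPKM in WT. KO2 lay above WT, with KO2 replicate 2 the highest and WT replicate 1 the lowest library. Its log2 fold change was 0.89 ± 0.35 in KO2 (adjusted p = 0.0447) and 0.52 ± 0.35 in KO1 (adjusted p = 0.207). The HIST2H2AC call in KO2 was lost without KO1 replicate 2, KO2 replicate 2 or 3 or WT replicate 1 (adjusted p = 0.0524 to 0.178), with all rows tested (0.221), after quantile normalization (0.0898) or after median centring (0.0549). The other 6 tested H2A genes had mean levels of 1.01 to 2.28 FPKM, and none passed.

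**Figure D5:**
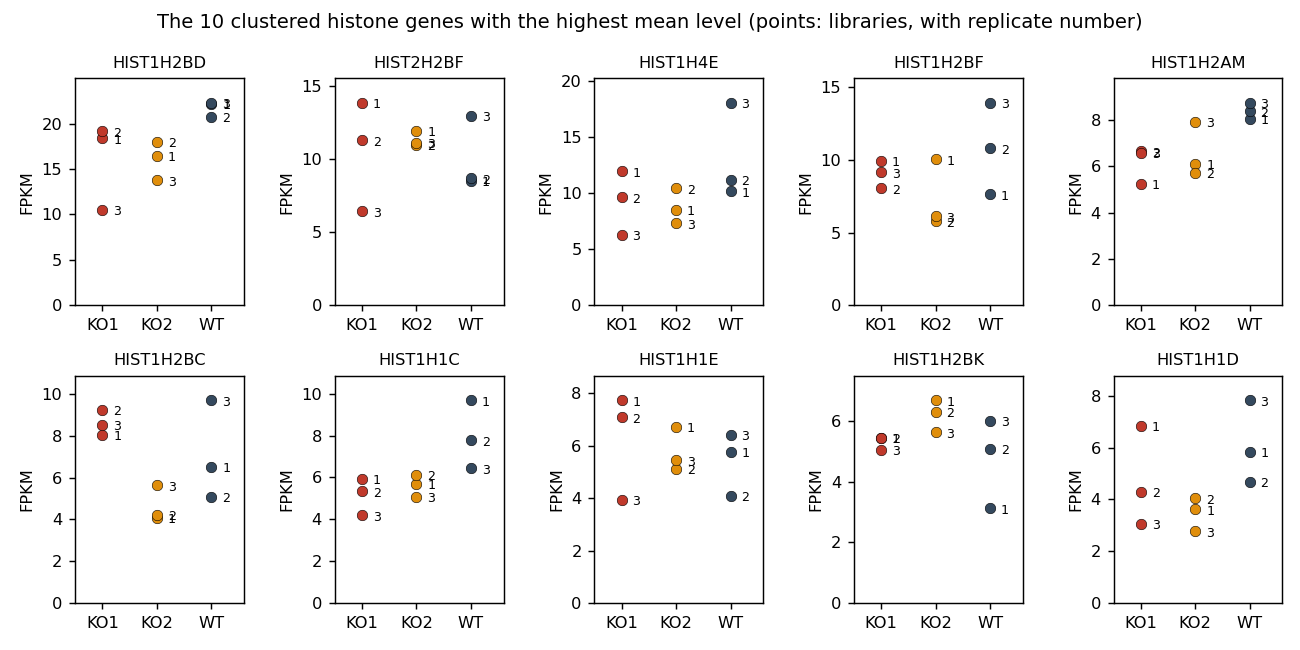
FPKM in each library (points, with the replicate number) of the 10 replication-dependent ("clustered") histone genes with the highest mean level, with axes from 0. For HIST1H2BD, HIST1H1C and HIST1H2AM all edited libraries lie below all WT libraries; for HIST2H2BF, HIST1H4E and HIST1H1E the groups overlap.

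H2B genes gave the largest part of the replication-dependent sum, while the median level per gene was 4.41 FPKM in the H1 family and 3.30 FPKM in the H2B family. HIST1H2BD had 18.4, 19.2 and 10.5 FPKM in KO1, 16.4, 17.98 and 13.7 FPKM in KO2 and 22.2, 20.7 and 22.3 FPKM in WT. Every edited library was below every WT library, with KO1 replicate 3 the lowest. The limma log2 fold change was -0.46 ± 0.18 in KO1 (adjusted p = 0.0421) and -0.42 ± 0.18 in KO2 (adjusted p = 0.0617). The HIST1H2BD call in KO1 was lost without KO1 replicate 3, KO2 replicate 1 or WT replicate 1, 2 or 3 (adjusted p = 0.0553 to 0.0933), with all rows tested (0.199), with only those groups in the fit (0.0594) or without both KO1 replicate 3 and WT replicate 3 (0.166). In KO2 it passed without KO1 replicate 2 or 3 (adjusted p = 0.00148 to 0.0486), after quantile normalization (0.0483), after median centring (0.0447), with only those groups in the fit (0.00316) or without both KO1 replicate 3 and WT replicate 3 (0.00631). HIST2H2BF had 13.9, 11.3 and 6.42 FPKM in KO1, 11.9, 10.96 and 11.1 FPKM in KO2 and 8.53, 8.67 and 12.9 FPKM in WT. The groups overlapped, with KO1 replicate 3 low and WT replicate 3 high. It passed in neither KO1 (0.03 ± 0.22, adjusted p = 0.926) nor KO2 (0.18 ± 0.22, adjusted p = 0.498). Without both of these libraries it was higher in KO1 (0.49, adjusted p = 0.00179) and in KO2 (0.36, adjusted p = 0.00599).

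HIST1H2BF had 9.93, 8.05 and 9.15 FPKM in KO1, 10.03, 5.78 and 6.13 FPKM in KO2 and 7.63, 10.8 and 13.9 FPKM in WT. The groups overlapped, and it passed in neither KO1 (-0.20 ± 0.21, adjusted p = 0.419) nor KO2 (-0.50 ± 0.21, adjusted p = 0.0553). In KO2 it passed without KO2 replicate 1 or WT replicate 1 (adjusted p = 0.00806 to 0.00882), after quantile normalization (0.0292) or after median centring (0.0372). HIST1H2BK had 5.45, 5.45 and 5.06 FPKM in KO1, 6.69, 6.32 and 5.64 FPKM in KO2 and 3.12, 5.09 and 6.03 FPKM in WT. WT replicate 1 was low and the groups overlapped. It passed in neither KO1 (0.17 ± 0.16, adjusted p = 0.357) nor KO2 (0.36 ± 0.16, adjusted p = 0.0672), and KO2 was called higher without WT replicate 3 (adjusted p = 0.0107) or without both KO1 replicate 3 and WT replicate 3 (0.0135).

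HIST1H2BN was called lower in KO1 and not in KO2. It had 2.07, 2.79 and 1.51 FPKM in KO1, 3.62, 4.32 and 4.51 FPKM in KO2 and 4.35, 3.17 and 5.66 FPKM in WT. All KO1 libraries were below all others, and KO2 overlapped WT. In log2 terms the change was -0.78 ± 0.18 in KO1 (adjusted p = 0.00263) and -0.04 ± 0.18 in KO2 (adjusted p = 0.844). HIST1H2BI had 3.499, 2.03 and 1.27 FPKM in KO1, 2.84, 4.79 and 5.03 FPKM in KO2 and 4.28, 4.51 and 4.72 FPKM in WT. KO1 was below WT, and KO2 overlapped it. It fell in KO1 (-0.81 ± 0.23, adjusted p = 0.00913) and did not pass in KO2 (-0.10 ± 0.23, adjusted p = 0.708). The HIST1H2BI call in KO1 was lost with all rows tested (0.0748) or without both KO1 replicate 3 and WT replicate 3 (0.071).

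HIST1H2BO had 2.68, 4.46 and 2.26 FPKM in KO1, 5.95, 4.07 and 4.24 FPKM in KO2 and 4.83, 4.33 and 5.59 FPKM in WT, and HIST1H2BJ had 3.26, 1.003 and 2.69 FPKM in KO1, 2.98, 3.16 and 2.697 FPKM in KO2 and 4.59, 3.88 and 3.06 FPKM in WT. For both genes 1 KO1 library overlapped WT. HIST1H2BO fell in KO1 (-0.55 ± 0.18, adjusted p = 0.0213) and did not pass in KO2 (-0.05, adjusted p = 0.826). Its KO1 call was lost without KO1 replicate 1 or 3 or WT replicate 3 (adjusted p = 0.0694 to 0.082), with all rows tested (0.121) or without both KO1 replicate 3 and WT replicate 3 (0.199). HIST1H2BJ fell in KO1 (-0.60 ± 0.23, adjusted p = 0.04) and did not pass in KO2 (-0.28, adjusted p = 0.306). The HIST1H2BJ call in KO1 was lost without KO1 replicate 2, KO2 replicate 1, 2 or 3 or WT replicate 1 or 2 (adjusted p = 0.0518 to 0.117), with all rows tested (0.19) or with only those groups in the fit (0.07).

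HIST1H2BH was listed at 0 in all 3 KO1 libraries, had 0, 0.884 and 1.32 FPKM in KO2 and 1.798, 1.57 and 1.54 FPKM in WT. All edited libraries were below all WT libraries. The difference passed in KO1 (adjusted p = 0.000415, with no fold given against values of 0) and in KO2 (-0.69 ± 0.24, adjusted p = 0.0272). The HIST1H2BH call in KO2 was lost without WT replicate 1, 2 or 3 (adjusted p = 0.0518 to 0.0674), with all rows tested (0.144), with a pseudocount of 0.1 (0.0728) or without both KO1 replicate 3 and WT replicate 3 (0.061). HIST1H2BC had log2 changes of opposite sign in the edited lines, with 8.05, 9.26 and 8.54 FPKM in KO1, 4.08, 4.21 and 5.63 FPKM in KO2 and 6.53, 5.09 and 9.71 FPKM in WT. KO1 and KO2 did not overlap, and both overlapped WT. In KO2 it was lower than WT (-0.49 ± 0.18, adjusted p = 0.0299), and this call was lost without KO2 replicate 1 or 2 or WT replicate 3 (adjusted p = 0.0883 to 0.0976), with all rows tested (0.159), with only those groups in the fit (0.0514) or without both KO1 replicate 3 and WT replicate 3 (0.112). In KO1 the log2 fold change was 0.28 ± 0.18 (adjusted p = 0.177), which was called without WT replicate 3 (adjusted p = 0.00778) or without both KO1 replicate 3 and WT replicate 3 (0.0167). HIST1H2BL, HIST1H2BM, HIST2H2BE and HIST3H2BB, at 1.74 to 4.37 FPKM, did not pass.

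H3 and H4 form the core tetramer of the nucleosome, and their replication-dependent genes were weakly measured. None of the 4 tested H3 genes passed in either line. HIST1H3B, the highest, had 3.35, 5.16 and 1.11 FPKM in KO1, 2.79, 2.25 and 2.78 FPKM in KO2 and 6.98, 2.13 and 6.29 FPKM in WT. Its libraries overlapped in all groups (log2 fold change -0.56 ± 0.40 in KO1 and -0.66 ± 0.40 in KO2; adjusted p = 0.229 and 0.168). HIST1H3A, HIST1H3D and HIST1H3I lay between 0.687 and 1.55 FPKM. Of the 9 tested H4 genes, HIST4H4 passed. It had 0.5903, 0.319 and 0.707 FPKM in KO1, 0.694, 0.9295 and 0.347 FPKM in KO2 and 1.904, 1.32 and 1.297 FPKM in WT. All edited libraries were below 1 FPKM and all WT libraries above it, so HIST4H4 entered the test through WT libraries alone. A gene kept in this way had to be lower in the edited lines. The separation adds no support, and the calls are read with that limit. The log2 fold change was -0.70 ± 0.16 in KO1 (adjusted p = 0.00212) and -0.61 ± 0.16 in KO2 (adjusted p = 0.00573).

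HIST1H4E, the most abundant H4 gene, had 11.9, 9.63 and 6.29 FPKM in KO1, 8.503, 10.4 and 7.29 FPKM in KO2 and 10.2, 11.2 and 18.1 FPKM in WT. The groups overlapped and WT replicate 3 was the highest. It passed in neither KO1 (-0.46 ± 0.23, adjusted p = 0.103) nor KO2 (-0.51 ± 0.23, adjusted p = 0.0758). HIST1H4E passed in KO1 without KO1 replicate 1 (adjusted p = 0.0373), and in KO2 without KO1 replicate 3 or WT replicate 1 (adjusted p = 0.0381 to 0.0393), after quantile normalization (0.05) or with only those groups in the fit (0.0481). The other 7 tested H4 genes had mean levels of 0.656 to 4.46 FPKM and passed in neither line. Over 29 low histone genes, the lowest value above 0, scaled to a common library depth estimated from low values, had a median of 0.293 FPKM, and how many fragments stand behind a value near 1 FPKM is unknown. Near-identical coding sequences of H4 and H3 genes can share reads, which makes their split uncertain.

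The edited lines were then compared with each other. Of the 50 histone genes tested, 7 differed between KO2 and KO1, 4 higher and 3 lower in KO2, against 30.6% of all tested genes (18.3% higher, 12.4% lower; median 0.04). H2AFY was higher in KO2 than in KO1 (0.18 ± 0.04, adjusted p = 0.00355) and H3F3B lower (-0.24 ± 0.04, adjusted p = 0.000885). HIST1H2BN was higher in KO2 than in KO1 (0.74 ± 0.18, adjusted p = 0.0102), a call lost with all rows tested (adjusted p = 0.0823). HIST1H2BI was also higher in KO2 (0.70 ± 0.23, adjusted p = 0.0394), a call lost without KO1 replicate 2 or 3, KO2 replicate 2 or 3 or WT replicate 2 or 3 (adjusted p = 0.0524 to 0.128), with all rows tested (0.197), after median centring (0.051), with only those groups in the fit (0.0606) or without both KO1 replicate 3 and WT replicate 3 (0.149). HIST1H2BH, at 0 throughout KO1, was higher in KO2 (adjusted p = 0.0473), a call lost without KO1 replicate 1, 2 or 3, KO2 replicate 2 or 3 or WT replicate 1, 2 or 3 (adjusted p = 0.052 to 0.156), with all rows tested (0.207), after quantile normalization (0.0626), after median centring (0.0603), with only those groups in the fit (0.0743) or without both KO1 replicate 3 and WT replicate 3 (0.119).

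HIST1H2BC was lower in KO2 than in KO1 (-0.78 ± 0.18, adjusted p = 0.00744), a call lost with all rows tested (adjusted p = 0.0688). HIST1H4D had 1.07, 1.16 and 0.885 FPKM in KO1, 0, 0.377 and 0.425 FPKM in KO2 and 0.398, 0.404 and 1.18 FPKM in WT. KO2 was below KO1 in every library, and both overlapped WT. It was lower in KO2 than in KO1 (-0.70 ± 0.19, adjusted p = 0.017), a call lost without KO1 replicate 2 or KO2 replicate 1 (adjusted p = 0.0557 to 0.0645) or with all rows tested (0.0978). It reached the 1 FPKM minimum in no KO2 library. Against WT, HIST1H4D did not pass in KO1 (0.33, adjusted p = 0.146) or KO2 (-0.38, adjusted p = 0.102). It was called in KO1 without WT replicate 3 (adjusted p = 0.0141) or without both KO1 replicate 3 and WT replicate 3 (0.0161), and in KO2 after quantile normalization (0.0024). Without both KO1 replicate 3 and WT replicate 3, 7 histone genes differed between KO2 and KO1, 2 higher and 5 lower.

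Promoter sequences were available in the RefSeq table (GRCh38.p14, 250 bases before to 50 after each start) for 79 of the 90 histone genes. The octamer ATTTGCAT, the binding motif of OCT1 (POU2F1), was present in 77.8% of 18 replication-dependent H2B genes, 68.8% of 16 H2A genes, 8.33% of 12 H3 genes, 0% of H1 and H4 genes and 2.19% of all 27305 genes. Motifs were searched on both strands. CCAAT was present in 100% of replication-dependent H1, H2A, H2B and H3 genes and 23.1% of H4 genes, against 39.7% of all genes. TATAAA was present in 67.7% of replication-dependent genes and 28.6% of variant genes, against 14% of all genes. The 120 bases before the start are shown, on the gene's strand, for the most abundant H2B gene (chr6:26158001-26158120 (plus strand)), an H2B gene with the octamer (HIST1H2BF, chr6:26199396-26199515 (plus strand)), an H2B gene called lower in KO1 under all 17 alternatives in which it was tested (HIST1H2BN, chr6:27838449-27838568 (plus strand)) and the variant genes H2AFZ (chr4:99950276-99950395 (minus strand)) and H3F3B (chr17:75779780-75779899 (minus strand)). Capitals mark the octamer, CCAAT and TATAAA, or their reverse complements ATGCAAAT and ATTGG.
HIST1H2BD: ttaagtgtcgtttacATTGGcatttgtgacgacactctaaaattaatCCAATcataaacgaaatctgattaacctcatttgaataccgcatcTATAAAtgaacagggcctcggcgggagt
HIST1H2BF: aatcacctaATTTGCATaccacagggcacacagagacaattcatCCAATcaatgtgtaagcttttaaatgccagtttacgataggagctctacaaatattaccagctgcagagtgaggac
HIST1H2BN: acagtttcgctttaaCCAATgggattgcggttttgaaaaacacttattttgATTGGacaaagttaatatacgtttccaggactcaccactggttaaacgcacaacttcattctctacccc
H2AFZ: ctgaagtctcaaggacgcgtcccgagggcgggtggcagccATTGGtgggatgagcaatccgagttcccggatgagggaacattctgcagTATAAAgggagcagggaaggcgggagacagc
H3F3B: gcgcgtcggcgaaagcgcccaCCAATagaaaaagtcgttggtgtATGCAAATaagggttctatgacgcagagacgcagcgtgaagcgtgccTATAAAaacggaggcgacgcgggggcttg
The window of HIST1H2BF held the octamer 111 bases before the start, and that of H3F3B held it as ATGCAAAT 76 bases before. TATAAA lay 28 bases before the start in HIST1H2BD, 31 in H2AFZ and 29 in H3F3B. A match is a description of the letters and not a site of binding.

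Divergent H2A and H2B genes share the sequence between their starts, so their promoter windows overlap and the same octamer can be counted for both. There were 11 such pairs, with a median of 236 bases between the starts. The H2B gene had the higher mean level in 7 pairs and the H2A gene in 3, and in 1 pair both were listed at 0. In the pair HIST1H2AM and HIST1H2BO the H2A gene averaged 7.05 FPKM and the H2B gene 4.27, and both were called lower in KO1. For HIST1H2AK and HIST1H2BN, which lie 194 bases apart, the levels were 0.0588 and 3.56 FPKM. HIST3H2A was called lower in KO1 (-0.63) while its partner HIST3H2BB was not called (0.21, adjusted p = 0.51). In HIST2H2AC and HIST2H2BE the log2 fold changes in KO2 were 0.89 and -0.15. The paired genes lay 194 to 248 bases apart and do not overlap in the annotation used for the pairs. Whether the counting used strand is not stated in the sources used here. Where other genes overlap on opposite strands, it is thus unknown whether their reads were told apart.

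Genes that make, process and carry histone mRNA and protein were read from a list each. Of 26 genes of histone gene transcription and mRNA processing, 10 rose and 5 fell in KO1 (median 0.10) and 11 rose and 3 fell in KO2 (median 0.11). The shares called, 57.7% in KO1 and 53.8% in KO2, lay below the 67.5% and 64.7% of all tested genes. SLBP, which binds the stem-loop, averaged 81.9 ± 1.74 FPKM in KO1, 80.1 ± 2.82 in KO2 and 79.8 ± 1.79 in WT and passed in neither (adjusted p = 0.411 and 0.896). NPAT, the cyclin E/CDK2 substrate at histone promoters, averaged 17.2 ± 0.748, 16.1 ± 0.176 and 16.8 ± 1.02 FPKM in KO1, KO2 and WT, and passed in neither (adjusted p = 0.611 and 0.441). CCNE1, the gene of cyclin E, rose (0.68 ± 0.08 in KO1 and 0.66 ± 0.08 in KO2), and CDK2 fell (-0.25 ± 0.04 and -0.34 ± 0.04). ZNF473 (ZFP100), which joins SLBP to the U7 particle, rose by 0.71 ± 0.06 in KO1 and 0.55 ± 0.06 in KO2. SRRT (ARS2), which links the mRNA cap to processing, rose by 0.66 ± 0.06 in KO1 and 0.68 ± 0.06 in KO2. The adjusted p of these 4 genes lay between 1.89e-06 and 0.000101. Without WT replicate 3, 9 genes of the list passed in KO2, in place of 14.

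Of 35 histone chaperones and their partners, 10 rose and 12 fell in KO1 (median 0.00) and 8 rose and 8 fell in KO2 (median 0.01). That is 62.9% called in KO1 and 45.7% in KO2, against 67.5% and 64.7% of all tested genes. HIRA, a chaperone of H3.3, had 44.8, 44.97 and 44.8 FPKM in KO1, 47.4, 50.03 and 47.8 FPKM in KO2 and 31.4, 33.7 and 33.4 FPKM in WT. The groups did not overlap, and it rose by 0.44 ± 0.04 in KO1 (adjusted p = 4.34e-06) and 0.55 ± 0.04 in KO2 (adjusted p = 1.07e-06). HJURP, the chaperone of CENPA, had 40.7, 39.3 and 43.2 FPKM in KO1, 29.2, 33.4 and 32.9 FPKM in KO2 and 77.8, 74.9 and 72.2 FPKM in WT. It was lower in every edited library, with log2 fold changes of -0.85 ± 0.06 in KO1 (adjusted p = 3.63e-07) and -1.21 ± 0.06 in KO2 (adjusted p = 4.29e-08). IPO4, which imports H3 and H4, rose by 0.62 ± 0.04 in KO1 and 0.82 ± 0.04 in KO2, and SET, an acidic histone chaperone, by 0.18 ± 0.03 and 0.46 ± 0.03 (adjusted p of the pair between 5.86e-08 and 0.000548).

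Of 30 S-phase genes, 13 rose and 9 fell in KO1 (median 0.09) and 12 rose and 11 fell in KO2 (median 0.04). The shares called were 73.3% in KO1 and 76.7% in KO2, and over all tested genes 35.6% were higher and 31.9% lower in KO1 and 38.1% and 26.6% in KO2. The replication licensing factor CDT1 averaged 19.7 ± 2.64 FPKM in KO1, 20.3 ± 0.8099 in KO2 and 40.2 ± 2.99 in WT (log2 fold change -0.997 ± 0.09 and -0.95 ± 0.09; adjusted p = 2.82e-06 and 5.05e-06). Thymidine kinase TK1 was lower (-0.57 ± 0.10 in KO1, adjusted p = 0.000551; -1.25 ± 0.10 in KO2, adjusted p = 2.21e-06). The uracil glycosylase UNG was higher (0.63 ± 0.05 in KO1, adjusted p = 1.48e-06; 0.42 ± 0.05 in KO2, adjusted p = 3.75e-05). The part of these genes, and of cell cycle phase, in the histone values was not tested.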

How the data were processed

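The authors deposited 1 table of FPKM values with a column for each of the 9 libraries and gene symbols as names; per the labels, RNA of exponentially growing Jurkat cells was made into libraries with a poly(A) mRNA kit. The submitters' processing notes name the build hg19 and the tools STAR 2.5.0b, Cufflinks 2.2.1 and bedtools 2.7.0, with no roles. Annotation, strand use and scaling between libraries: not given in the sources used here. Sample titles gave the groups and replicate numbers.

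Of 26228 rows, 38 hold text and were left out. No 2 columns were identical (0 pairs). Genes at 1 FPKM or more in at least 3 libraries (11737) were fitted as log2(FPKM + 1) in R 4.3.3 by limma 3.58.1, all 9 libraries together with 3 group means, a mean-variance trend and Benjamini-Hochberg adjustment over all tested genes; calls are at adjusted p under 0.05. The fit was tested on simulated data. FPKM are not counts. Of 199 low values, scaled to a common depth, 54.8% lay within 0.1 of a whole multiple of the gene's lowest value above 0. That lowest value counts as its own multiple, and the fragments behind it are unknown. The check thus cannot decide whether low values move in steps, and no counting interval can be given. Sums over genes have no test.

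The histone genes and the lists were chosen with earlier results of these data known. Values per library are given for tested variant genes, the 10 highest replication-dependent genes, up to 10 called histone genes with the largest change per comparison, and EZH2; from each list, for up to 4 genes lowest in p when both edited lines are averaged, and for SLBP, NPAT and CENPA. HIST1H1B, HIST1H3B, HIST3H2BB, HIST2H2BE, CD2 and CD28 were named after their values were seen. Symbols of all 90 matched RefSeq (GRCh38.p14); stem-loops came from GENCODE 29. Alternatives were other filters, pseudocounts (0.1, 0.5) and scalings, fits of the compared groups alone, a replicate block, each library left out, and, chosen after seeing the data, KO1 replicate 3 and WT replicate 3 left out together.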

Additional observations from a re-analysis of the deposited data

Results flagged for a closer look

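There were 7 histone genes that differed between KO2 and KO1 by the limma test of that difference (adjusted p under 0.05), which is also the test that their changes against WT differ, since the WT libraries are shared. H2AFY (0.18) was higher in KO2 than in KO1 by this log2 difference, and so were HIST1H2BI (0.70) and HIST1H2BN (0.74). Lower in KO2 were H3F3B (-0.24), HIST1H2BC (-0.78) and HIST1H4D (-0.70), which reached the 1 FPKM minimum in no KO2 library. HIST1H2BH, listed at 0 in every KO1 library, was higher in KO2 (adjusted p = 0.0473, with no difference given). H2AFY and H3F3B were above WT in both edited lines. The calls of HIST1H2BI and HIST1H2BH were lost under 11 and 14 of 17 alternatives.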

How the results depend on the processing

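The number of histone genes called fell when all rows were tested without a low-value filter, to 10 of 90 in KO1 against WT, 6 in KO2 against WT and 3 in KO2 against KO1, in place of 17, 12 and 7. The shares of all genes called fell too, to 30.6%, 27.5% and 11.3% in these comparisons, in place of 67.5%, 64.7% and 30.6%. With a minimum of 5 FPKM, which leaves 22 histone genes, 9 were called in KO1 against WT and 3 in KO2 against KO1. The shares of all tested genes with that minimum were 69.6% and 31.8% in these comparisons. Leaving out 1 library at a time gave 16 to 19 in KO1 against WT, 9 to 16 in KO2 against WT and 5 to 7 in KO2 against KO1. The shares of all tested genes were then 62.5% to 67.6%, 58.5% to 66% and 22.5% to 34.8%. Of the transcription and processing list, 9 to 16 genes passed in KO2 over these omissions, with 9 without WT replicate 3. Summed over tested genes alone, the replication-dependent genes averaged 146 FPKM in KO2, in place of 151. For the 43 named genes, 2289 values under alternatives were compared: 2139 kept their side of the threshold, 2078 of them with the same sign and 61 with the other sign and no call, 95 lost a call, 55 gained one and 0 reversed a call. The cause was not tested, apart from fewer genes or libraries entering some fits. H2AFV, H2AFY, H2AFZ, H3F3B and HIST4H4 passed in both lines under every alternative in which they were tested, though HIST4H4 passed the low-value filter through WT libraries alone. Depth in reads is unknown, and the replication-dependent genes have a median of 1.06 FPKM.

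The replicate numbers did not pair the libraries in every comparison. Deviations of same-numbered libraries from their group means correlated at -0.29, -0.08 and -0.21 between KO1 and WT. Those of differently numbered libraries ran from -0.21 to 0.34. Between KO2 and WT the same-numbered values were all positive, at 0.32, 0.03 and 0.23, and the others ran from -0.27 to 0.08. Between KO2 and KO1 they were -0.05, 0.14 and -0.08, and the others ran from -0.14 to 0.16. With the replicate number as a block, 18, 14 and 5 histone genes were called in KO1 against WT, KO2 against WT and KO2 against KO1. Over all tested genes the block gave 65.6%, 62.5% and 26.7% in the same order. It gave 15 and 12 genes of the processing list, 18 and 14 chaperones and 21 and 22 S-phase genes in KO1 and KO2. Under the block, calls were lost for HIST2H2AC in KO2 against WT (adjusted p = 0.0531) and for HIST1H2BI (0.0717) and HIST1H2BH (0.0568) in KO2 against KO1. H3F3A passed in KO1 (0.0217) and KO2 (0.0199), and HIST1H2BD passed in KO2 (0.0342). H3F3A entered the test through edited libraries alone, which limits its passes.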
